A study of Mus musculus with 5 samples.

Results

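Keratins mark both epithelial layers of the mammary gland, and their genes were examined here for RNA polymerase II (RNAPII), for NELF-A and NELF-B, which are subunits of the negative elongation factor, and for R-loops. The 7 genes were Krt8, Krt18, Krt19 and Krt7 as luminal keratins and Krt5, Krt14 and Krt17 as basal keratins. Each gene stood for a fixed mm9 window of 15 to 28 kb, and a peak belonged to a gene when it overlapped that window by 1 bp or more. The windows held 14 of the 32456 deposited peaks, of which 3 were RNAPII peaks, 11 were DRIP peaks and 0 were NELF-A or NELF-B peaks. The 4 luminal windows held 13 of them and the 3 basal windows held 1.

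The peaks came from primary epithelial cells of the mammary gland. The donors were virgin mice, mixed in strain and between 6 and 8 weeks old, whose thoracic and inguinal glands were digested to single cells; the protocol names no sorting by cell type. RNAPII, NELF-A and NELF-B were mapped by ChIP-seq and R-loops by DRIP-seq, an immunoprecipitation of digested genomic DNA with an R-loop antibody. The antibodies against NELF-A and NELF-B were made in house. No genotype or treatment set these groups apart; the groups are the 4 targets, each with 1 peak list. A further sample of DNA treated with RNase H before DRIP-seq was not used here, so no DRIP peak was checked for loss after that enzyme. The RNAPII and DRIP titles name 2 libraries each, with 1 list for both. There was therefore no spread between replicates, and luminal and basal genes were compared without a test. Sequencing depth is unknown, so a target without a peak was not detectable at the authors' threshold rather than shown to be absent.

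Keratins assemble as pairs of a type I and a type II chain into the intermediate filaments of epithelial cells. Krt8 and Krt7 encode type II chains and Krt18 and Krt19 encode type I chains of simple epithelium, which in the mammary gland mark the luminal cells lining the ducts. Krt5, a type II chain, and Krt14, its type I partner, mark the outer basal layer with its myoepithelial cells, and Krt17 is a type I chain of basal and stress-activated epithelium. NELF holds RNAPII paused soon after transcription starts. In an R-loop the nascent RNA stays paired with the template strand and displaces the other DNA strand.

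RNAPII lay over 3 of 4 luminal keratin windows and over 0 of 3 basal windows. Krt8, Krt18 and Krt19 each held a single long RNAPII peak, while Krt7, Krt5, Krt14 and Krt17 held no RNAPII peak. For scale, RNAPII peaks were found in 4.1% of all tiles of 16 kb, the median length of the windows, laid end to end over the genome. Unlike the windows, these tiles were not placed on genes, so their shares set no expectation for a gene. NELF-A was found in 6.09% of tiles, NELF-B in 2.34% and DRIP in 4.47%. DRIP peaks were present in 4 of 4 luminal windows and in 1 of 3 basal windows. Among the upper 50% of the DRIP list by score these counts were 2 of 4 and 1 of 3, since Krt18 and Krt7 held only DRIP peaks at or next to the lowest score. The cells were a mixture, so fewer cells of a type and less RNAPII per cell at these genes cannot be told apart.

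**Figure D1:**
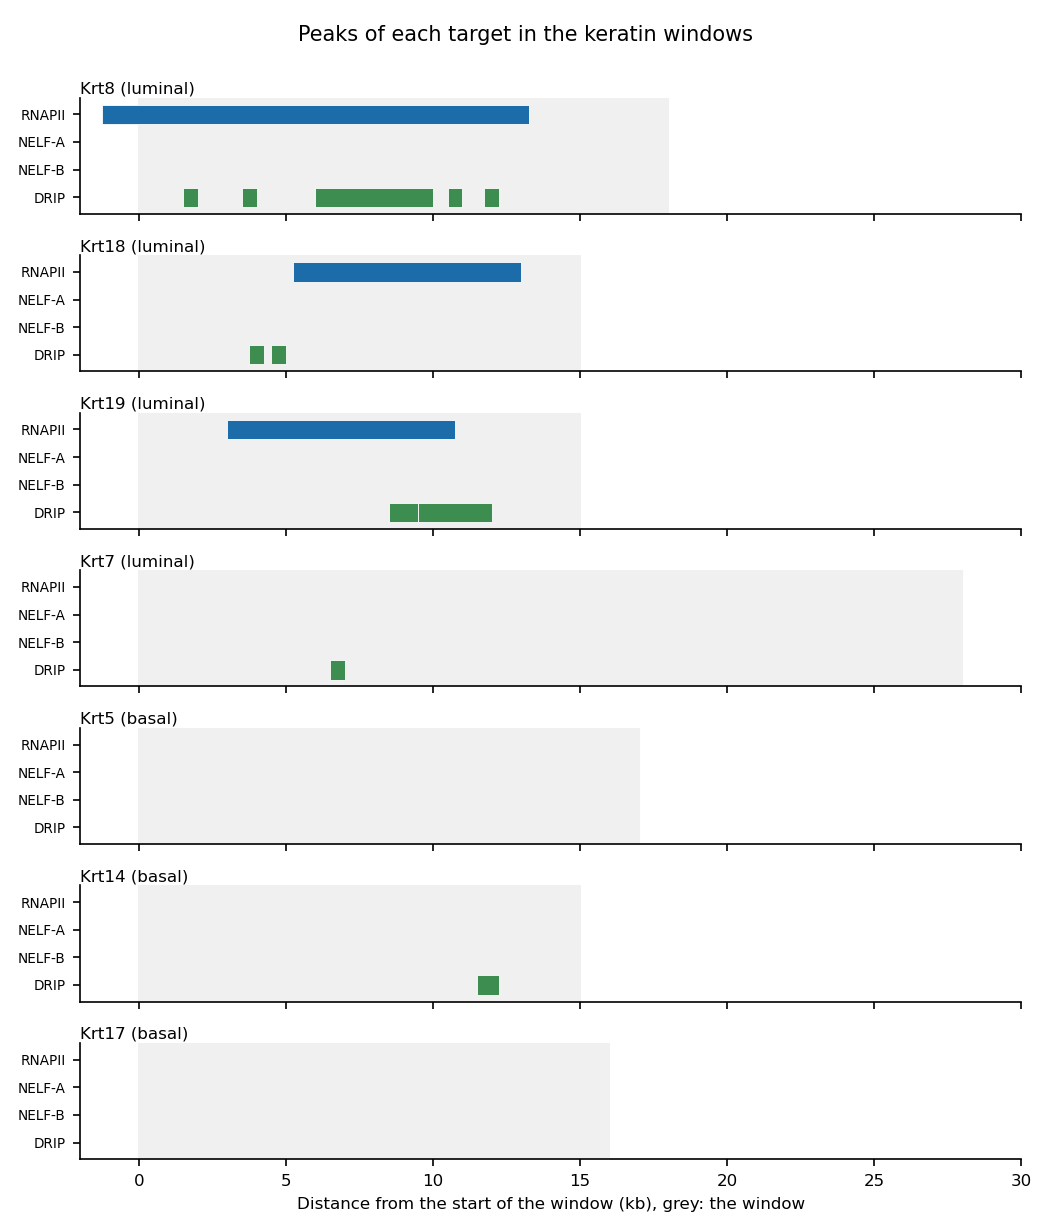
Peaks in the window of each keratin gene, by target, against the distance from the start of the window in kb (grey marks the window, bars mark peaks at their listed width). RNAPII bars appear at Krt8, Krt18 and Krt19 alone, the NELF-A and NELF-B lines are empty in all 7 windows, and DRIP bars appear in 5 windows.

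Krt8, the type II partner of Krt18 in simple epithelia, carried the largest RNAPII peak of the set. Its window on chromosome 15 runs from 101822001 to 101840000. The RNAPII peak ran from 101820751 to 101835250, a width of 14500 bp, and started 1250 bp before the window. Its score, a whole number per peak given by the authors with no stated unit, was 9208, rank 59 of 7718 RNAPII peaks. Score rises with width, and per 250 bp the score was 158.8, above 98.8% of the RNAPII list. Wide peaks also scored higher per 250 bp. Of the 208 RNAPII peaks of 7750 bp or more, 77.9% scored lower per 250 bp than Krt8. The peak covered 73.6% of the Krt8 window. Among 18 kb tiles that held RNAPII, 98.1% were covered less. Of all 18 kb tiles, most of which held no RNAPII, 0.0862% were covered as much.

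R-loop signal at Krt8 lay wholly inside the RNAPII peak. There were 5 DRIP peaks, which together covered 41.4% of the RNAPII peak. The main DRIP peak, from 101828001 to 101832000, was 4000 bp wide with a score of 383, rank 457 of 10031. The other 4 were 500 bp wide, with scores of 45, 39, 38 and 38, where 38 is the lowest score in the DRIP list. By score, DRIP at Krt8 was thus carried by a single peak near the upper part of the list, with small peaks on either side. Per 250 bp the main peak scored 23.9, above 84.9% of the DRIP list. The peak with a score of 45 came to 22.5 per 250 bp, above 76.5%.

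Krt18, the type I partner of Krt8, carried the second RNAPII peak of the set by score. Its window on chromosome 15 runs from 101853001 to 101868000, and the RNAPII peak ran from 101858251 to 101866000. This peak was 7750 bp wide with a score of 3926, rank 167 of 7718, and 126.6 per 250 bp, above 97.3% of the list. Of the 208 RNAPII peaks at least as wide, 63.0% scored lower per 250 bp. It covered 51.7% of the window. Here the DRIP peaks lay beside RNAPII instead of inside it. Both had the lowest score of the list, 38, and ended 1000 bp and 250 bp before the RNAPII peak began.

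Krt8 and Krt18 neighbour each other with no protein-coding gene listed between them in RefSeq's GRCm38 table. The 13 kb between their windows held an RNAPII peak of 1750 bp with a score of 420, from 101846751 to 101848500. A DRIP peak of 750 bp with a score of 61, from 101846251 to 101847000, overlapped its lower end. RNAPII was therefore listed at both genes of the pair and between them, in 3 separate peaks, and NELF in none of these places.

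Krt19, a type I keratin of simple epithelium that lacks the usual tail domain, carried an RNAPII peak as wide as that of Krt18 but lower. Its window on chromosome 11 runs from 99997001 to 100012000, and the RNAPII peak from 100000001 to 100007750. The peak was 7750 bp wide with a score of 2734, rank 256 of 7718. Its score per 250 bp was 88.2, above 86.2% of the list but above only 28.8% of the 208 RNAPII peaks at least as wide. The peak covered 51.7% of the window. At Krt19 the DRIP signal sat at the upper end of RNAPII, in 2 touching peaks from 100005501 to 100006500 and from 100006501 to 100009000. Their scores were 94 and 275, and the second reached 1250 bp past the end of RNAPII. DRIP covered 29.0% of the RNAPII peak.

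The 3 RNAPII peaks thus kept the order Krt8, Krt18, Krt19 both by score and by score per 250 bp. With 1 list there is no spread to set against these differences. The order for DRIP was another, with 383 as the highest score at Krt8, 275 at Krt19 and 38 at Krt18. The Krt19 peak touches another with a score of 94, so its distance from Krt8 depends on where the list divided the signal. Per 250 bp the highest DRIP values were 27.5 at Krt19, 23.9 at Krt8 and 19 at Krt18, so Krt8 led by score alone.

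Krt7 is counted with the luminal keratins but did not share their RNAPII. Its window on chromosome 15, from 101237001 to 101265000, is the longest at 28 kb. It held a single DRIP peak, from 101243501 to 101244000, of 500 bp and a score of 39, just above the lowest score of the list. The nearest RNAPII peak on the lower side was 121750 bp from the window and on the upper side 555750 bp. Peak lists therefore set Krt7 with the basal keratins, not with Krt8, Krt18 and Krt19, as far as RNAPII is concerned.

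The basal windows were nearly empty. Krt5, on chromosome 15 from 101532001 to 101549000, held no peak of the 4 targets, and its nearest RNAPII peak was the one at Krt8, which begins 271750 bp above the window. Krt17, on chromosome 11 from 100112001 to 100128000, also held none, with the nearest RNAPII peak 23750 bp above. Krt14, on chromosome 11 from 100059001 to 100074000, held a single DRIP peak from 100070501 to 100071250. That peak was 750 bp wide with a score of 65, above 62.0% of the DRIP list, and the nearest RNAPII peak, that of Krt19, ended 51250 bp below the window. In the whole genome, 3.1% of 16 kb tiles without RNAPII held a DRIP peak.

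Summed over the windows, RNAPII covered 37.8% of the luminal keratin sequence (115 of 304 bins of 250 bp) and 0% of the basal (0 of 192 bins). The difference was 37.8 percentage points, with a 95% Newcombe interval of 32.2 to 43.4. DRIP covered 14.5% of the luminal bins (44 of 304) and 1.56% of the basal bins (3 of 192), a difference of 12.9 points (8.34 to 17.4). These intervals treat the bins as independent draws, although every bin was counted and the 115 luminal RNAPII bins belong to 3 peaks. They measure no spread between genes or libraries and are too narrow for a comparison of genes. Without Krt7 the RNAPII difference was 59.9 points, and without Krt8 it was 26.7 points. For DRIP, leaving out Krt8 gave 7.06 points and leaving out Krt7 gave 20.3 points.

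**Figure D2:**
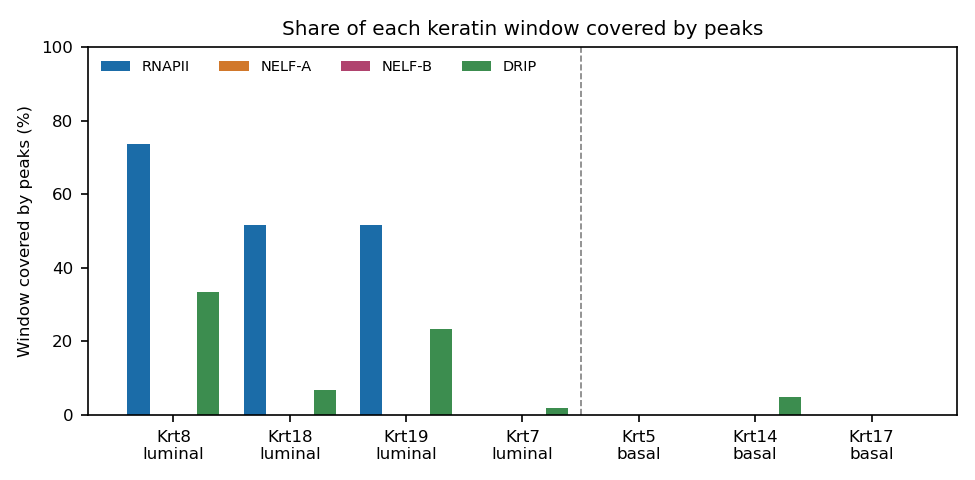
Share of each window, in percent of its length, covered by peaks of each target, with luminal keratins left of the dashed line and basal keratins right of it. RNAPII covers 73.6% at Krt8 and 51.7% at Krt18 and Krt19, DRIP covers between 1.79% and 33.3% of the luminal windows and 5% at Krt14, and no bar is visible for NELF-A or NELF-B because both are at 0.

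NELF was listed at none of the 7 keratin genes, including those with long RNAPII peaks. The NELF-A and NELF-B libraries had 0.2 ng of ChIP DNA, against 1 ng for RNAPII, and the effect on peak calls was not tested. The nearest NELF-A peak was 37.75 kb from the RNAPII peak of Krt18, 68.5 kb from that of Krt8 and 173 kb from that of Krt19. The nearest NELF-B peaks were 38 kb, 68.75 kb and 173.25 kb away. For Krt8 and Krt18 it was the same NELF-A peak, from 101903751 to 101904750 with a score of 33, which lay over a short RNAPII peak of 750 bp with a score of 162. That site carried NELF-B too, with a score of 7, the lowest in the NELF-B list.

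On chromosome 11 the next long RNAPII peak did carry NELF. It ran from 100180751 to 100187250, 52.75 kb above the Krt17 window, with a width of 6500 bp and a score of 4373. It was narrower than the Krt18 and Krt19 peaks (7750 bp each) and higher in score (3926 and 2734). Its score per 250 bp was therefore higher than theirs too. This RNAPII peak overlapped a NELF-A peak with a score of 142, rank 93 of 10782. It also overlapped a NELF-B peak with a score of 38, rank 78 of 3925, and 2 DRIP peaks. NELF of high rank was thus listed close to the type I keratin cluster. The peak was chosen after the values were seen and is no matched control for the keratin peaks.

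Long RNAPII peaks without NELF were a minority of the RNAPII list. Of all RNAPII peaks, 27.5% overlapped neither NELF-A nor NELF-B, and 1345 of these 2122 peaks were 1 kb wide or less. Of the 208 RNAPII peaks at least as wide as those of Krt18 and Krt19, 35 (16.8%) overlapped neither subunit, and the 3 keratin peaks were among them. DRIP overlapped 62.9% of these 35 peaks and 87.9% of the 173 equally wide peaks with NELF. The keratin peaks fell on both sides, since Krt8 and Krt19 overlapped DRIP and Krt18 did not. With 3 peaks, 2 of which are neighbours, this describes these genes and shows nothing particular to keratins.

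Within those 35 peaks, Krt8 had the second highest score, Krt18 rank 15 and Krt19 rank 28. The median score per 250 bp was 79.5 over the 35 peaks and 115.5 over the 173 with NELF. Krt8, at 158.8, and Krt18, at 126.6, lay above both medians, and Krt19, at 88.2, lay between them. Most of the 35 peaks had NELF closer by: the median distance to the nearest NELF peak was 15.25 kb, and 13 of them (37.1%), the keratin peaks included, were more than 20 kb from any.

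**Figure D3:**
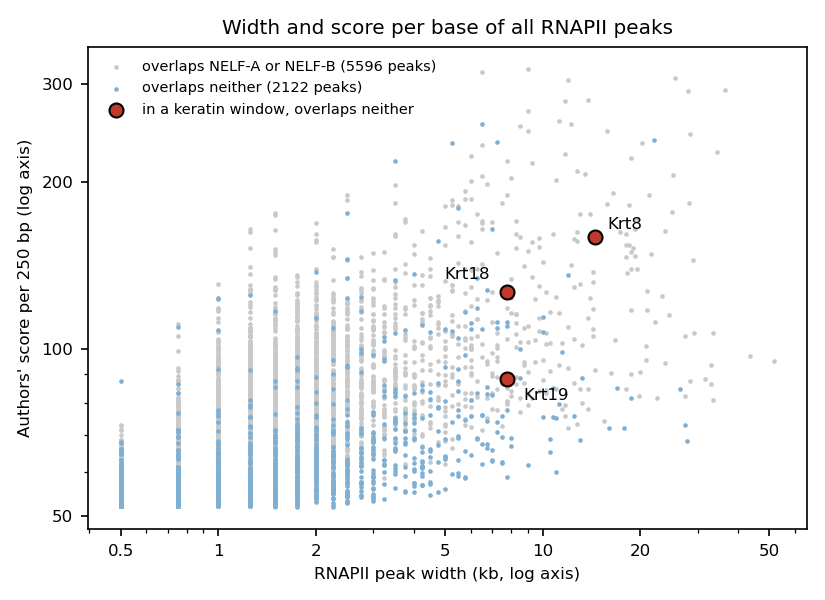
Each point is an RNAPII peak of the list, with its width in kb (log axis) against the authors' score per 250 bp (log axis); grey peaks overlap NELF-A or NELF-B and blue peaks overlap neither. The 3 keratin peaks (red) lie among the wide peaks, with Krt8 at 158.8, Krt18 at 126.6 and Krt19 at 88.2 per 250 bp.

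DRIP peaks in the windows could not overlap NELF, since the nearest NELF peak lay 35750 bp from a window. Of the 11 DRIP peaks in the windows, 7 overlapped RNAPII, all at Krt8 or Krt19, and 0 overlapped NELF. The 0 of 11 restates the lack of NELF in the windows and is no separate result. Over the whole DRIP list, 23.1% of peaks overlapped RNAPII and 16.2% overlapped NELF. Of the listed DRIP peaks on RNAPII, 59.5% also overlapped NELF. Scores of 38 or 39 were given to 6 of the 11 peaks, 3 of them at Krt8, 2 at Krt18 and 1 at Krt7, where 21.4% of the DRIP list had such scores. The 4 peaks above the list's median of 58 lay at Krt8, Krt19 and Krt14. RNAPII, DRIP and the lack of NELF occurred together in 373 tiles of 16 kb, 0.232% of all tiles, where 6584 tiles held RNAPII. Among tiles with RNAPII, 15.5% held no NELF and 36.4% held DRIP. The windows of Krt8, Krt18 and Krt19 held this combination, Krt18 only through 2 DRIP peaks of the lowest score beside its RNAPII peak. These windows are singled out because they held RNAPII, so no rarity is read from the share of all tiles.

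The windows lie in the type II cluster on chromosome 15 and the type I cluster on chromosome 11, so the stretches between them hold other keratin genes. RefSeq's GRCm38 table lists 11 keratin genes between Krt7 and Krt5, among them Krt6a and Krt6b of activated epidermis and the hair keratins Krt81 and Krt86. It lists 10 between Krt5 and Krt8, among them Krt1 and Krt2 of differentiated epidermis. Krt9 lies between Krt19 and Krt14, and Krt16 between Krt14 and Krt17. The 4 stretches sum to 625 kb, and they held no RNAPII, NELF-A or NELF-B peak apart from the end of the Krt8 RNAPII peak. DRIP was listed there 3 times, with scores of 38, 43 and 59. Within the span from the first to the last window on each chromosome, RNAPII was thus listed at Krt8, Krt18 and Krt19 and between Krt8 and Krt18; keratin genes outside these spans were not examined.

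**Figure D4:**
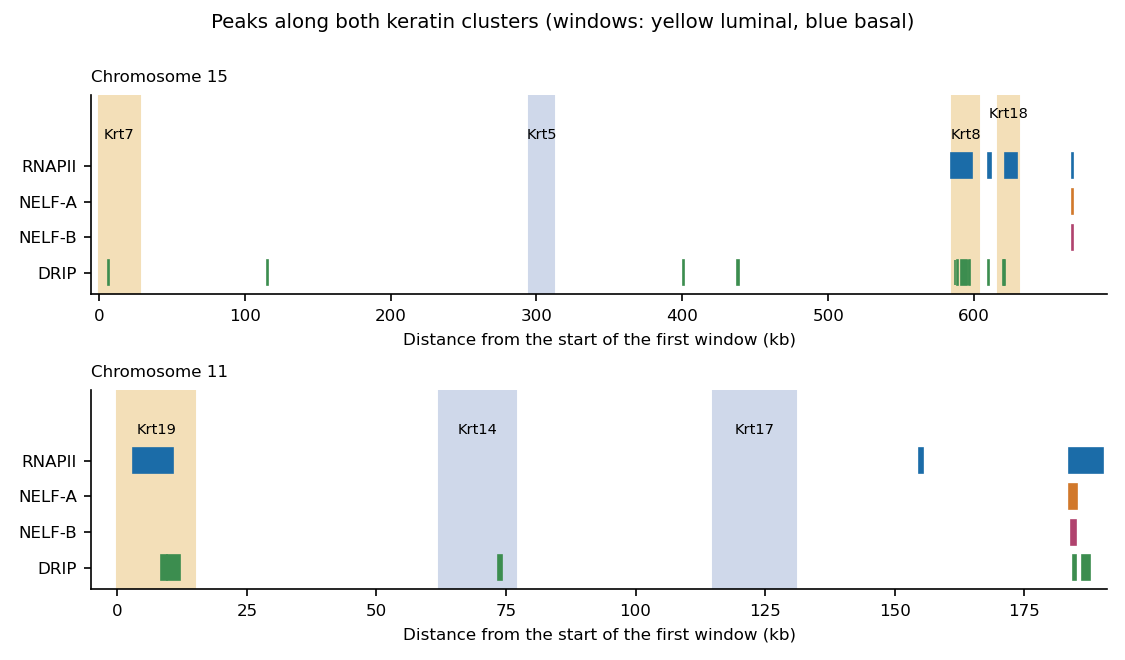
Peaks of each target along both keratin clusters, against the distance from the first window in kb, up to 60 kb past the last window (yellow: luminal windows, blue: basal windows; very short peaks are drawn with a visible edge). RNAPII lies at Krt8, between Krt8 and Krt18, at Krt18 and at Krt19, and past the last window of each cluster NELF-A and NELF-B appear together with RNAPII. On chromosome 11 a 750 bp RNAPII peak with a score of 159, nearer to the last window, overlaps neither subunit.

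Promoter sequence is shown for a luminal pair with RNAPII, Krt8 and Krt18, and for 2 type II keratins without it, Krt7 and Krt5, so that both states can be read side by side. RefSeq's promoter table matched 5 of the 7 genes, with no entry for Krt19 and Krt17, and the entry for Krt14 starts inside the gene and is not shown. Each line gives 80 bases before and 20 after the listed start, 5′ to 3′ on the gene's strand, in GRCm38.p6 and not in the mm9 of the peaks, so no peak was placed on them. Capitals mark TATAA or ATAAAA on either strand, words like the core of the TATA box.
Krt8, chr15:102004323-102004422, minus strand: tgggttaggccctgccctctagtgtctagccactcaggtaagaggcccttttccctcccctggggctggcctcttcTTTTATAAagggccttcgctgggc
Krt18, chr15:102028136-102028235, plus strand: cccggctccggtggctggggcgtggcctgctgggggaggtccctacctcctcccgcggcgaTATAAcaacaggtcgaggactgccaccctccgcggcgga
Krt7, chr15:101412323-101412422, plus strand: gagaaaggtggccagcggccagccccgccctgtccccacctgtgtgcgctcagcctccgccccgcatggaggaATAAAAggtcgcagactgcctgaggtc
Krt5, chr15:101712886-101712985, minus strand: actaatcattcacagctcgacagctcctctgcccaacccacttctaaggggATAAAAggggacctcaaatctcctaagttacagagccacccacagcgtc

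TATAA was present at Krt8 and Krt18, and in 9.93% of all 32844 promoters of the table over the same bases and both strands. ATAAAA was present at Krt7 and Krt5 on the gene's strand and at Krt8 on the other strand, where it overlaps TATAA, and in 6.63% of all promoters. One or the other word was present in 13.8% of all promoters and in these 4, whether RNAPII was listed at the gene or not. On the gene's strand the word began 29 bases before the listed start at Krt5, 19 at Krt18, 7 at Krt7 and 1 at Krt8, where it spans the start. A TATA box usually lies further upstream than the words at Krt18, Krt7 and Krt8. The listed starts were not measured in these data, and whether any of these words acts as a TATA box was not tested. The GC content of the printed bases was 59% at Krt8, 72% at Krt18, 67% at Krt7 and 51% at Krt5, where the median of all promoters was 55%. Krt18 held 10 CpG pairs and Krt7 held 6, against a median of 3, while Krt8 held 1 and Krt5 held 2. Whether GC content or CpG pairs relate to RNAPII was not tested, and 4 genes are too few to tell.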

How the data were processed

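Peak lists of RNAPII, NELF-A, NELF-B and DRIP from primary mouse mammary epithelial cells were used, 1 list per target. The submitters' processing notes name BWA and the mm9 build. The BWA version, how peaks were called and whether an input served as control are not stated there or in the labels. The deposited score, the authors' whole number per peak, has no stated unit and was ranked within its own list only. Per the labels' protocols, libraries had 15 PCR cycles (RNAPII, DRIP) or 18 (NELF). ChIP DNA was 1 ng for RNAPII and 0.2 ng for NELF-A and NELF-B. The effect of these differences was not tested.

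Peaks were assigned to fixed mm9 windows by an overlap of 1 bp or more. The windows were not checked against an mm9 annotation, so no peak is placed in an exon, intron or UTR. Coverage was counted in 250 bp bins, the grid of the lists. The background is every 16 kb tile between the first and last listed base of each chromosome. Intervals are 95% Newcombe intervals (scipy 1.17.1; Python 3.11.15, pandas 2.3.3). No p-values were computed, since genes and peaks are not replicates. Overlap code was tested on simulated data. The 7 genes were named by rule; they, their windows and the settings were chosen with earlier results of these data known. The comparison with equally wide RNAPII peaks, the RNAPII peak above the Krt17 window and the promoter motifs were chosen after the values were seen.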

Additional observations from a re-analysis of the deposited data

How the results depend on the processing

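No paired analysis was possible because each target had 1 list. Of 71 values under alternative settings whose reported value is above 0, 46 stayed within 1.5 times the count or inside the interval and 25 moved. Only the DRIP difference between luminal and basal windows could have changed sign, and it did so under no setting. The other 83 belong to results at 0 (NELF in the windows, RNAPII in basal windows), which no setting could raise. The nearest NELF peak lay 35750 bp from a window, and the nearest RNAPII peak lay 23750 bp from a basal window. Widening the windows by 5 kb or counting NELF within 1000 bp could not reach these peaks, so the 83 values add no support. The RNAPII difference between luminal and basal windows was 26.3 points with windows widened by 5 kb, 44.6 with windows narrowed by 2 kb and 44.2 with genes weighted equally, and 26.7 to 59.9 with each gene left out in turn. For DRIP it was 8.31 points among the upper 50% of peaks by score and 7.06 to 20.3 with each gene left out; luminal windows with DRIP fell from 4 to 2 among the upper 50%. With each gene left out, RNAPII was found in 2 to 3 luminal windows, DRIP in 0 to 1 basal windows (0 without Krt14), and 1 to 2 RNAPII peaks overlapped DRIP. With peaks set to 500 bp around their centres, 0 RNAPII peaks of the windows overlapped DRIP, since only the middle of a long peak is kept. Tiles of 10 kb held RNAPII at 2.81%, NELF-A at 4.05%, NELF-B at 1.51% and DRIP at 3.06%; tiles of 25 kb at 5.85%, 8.86%, 3.54% and 6.44%; 16 kb tiles of the autosomes alone at 4.3%, 6.36%, 2.46% and 4.68%. Taking RNAPII peaks by score in place of width, a setting chosen after seeing the data, 16.0% overlapped no NELF, against 16.8% by width. Depth is unknown, which limits every statement on a missing peak.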
